A study of Mus musculus with 12 samples.

Results

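The proteasome genes measured here were chosen by symbol: every gene of the array annotation whose name begins with Psma to Psmg followed by a number, apart from the inducible subunits Psmb8 and Psmb9. The choice used no expression value. It gave 47 of the 18193 genes that a probe set names alone. Of these, 45 encode subunits of the proteasome, its activators, its inhibitor or its assembly chaperones. The other two, Psmc3ip and Psme3ip1, match by name only. Psmc3ip encodes a cofactor of meiotic recombination, and Psme3ip1 encodes a protein that binds the activator subunit of Psme3.

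RNA was measured on expression arrays in CD4+ T cells sorted from mouse spleen, regulatory T cells (CD4+CD25+, Treg) and conventional T cells (CD4+CD25-, Tconv). The mice were NOD, a strain that develops autoimmune diabetes, or B6.H2g7, written B6g7 here, which is B6 congenic for the MHC haplotype H2g7 that NOD also carries. All mice were 6 weeks old and no treatment is named. Both populations were taken from both strains, which gives 4 groups, and each group was measured on 3 arrays, every array from an independent pool of 3 mice, and the question put by the study was how the Treg to Tconv ratio compares between the strains. The sort kept cells negative for CD8a, CD11b, CD69 and B220, and took only the CD25-high cells as Treg. On restaining, 94%, 96% and 96% of B6g7 Treg and 89%, 95% and 95% of NOD Treg were Foxp3+, so each Treg pool held some cells without the factor. In sorted pools, fewer cells of a type and less RNA per cell cannot be told apart.

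The proteasome is the protease that degrades most ubiquitin-tagged proteins of the cytosol and nucleus. Its barrel-shaped core is built of rings of alpha and beta subunits. Psmb5, Psmb6 and Psmb7 carry the active sites, and in lymphocytes the interferon-inducible Psmb8, Psmb9 and Psmb10 can take their places to form the immunoproteasome, which supplies peptides for MHC class I. A regulatory particle of ATPase (Psmc) and non-ATPase (Psmd) subunits recognizes tagged proteins and unfolds them. Psmd5, Psmd9 and Psmd10 are assembly chaperones of that particle and are counted here with the non-ATPase genes. The Psme activators open the core in other ways, and the Psmg chaperones assemble it.

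The genes that define Treg separated the populations. Foxp3, the lineage factor of Treg, was higher in Treg than in Tconv by 5.32 on the log2 scale in B6g7 and by 5.14 in NOD, and Il2ra, which encodes CD25, by 5.34 and 5.07. Median intensity lay between 83.9 and 88.6 on every array. All 4 T cell markers read above 9 on the log2 scale in every group, and Cd4 alone of these was called, lower in Treg on average (-0.40, adjusted p = 0.0262). Of the 3 measured B cell markers, Cd79b alone was called, higher in Treg by 0.79. Of the 3 monocyte and macrophage markers, the CD11b gene Itgam was dim in every group. Lyz2 and Csf1r were dim in none, with means of 6.95 and 7.48 over the arrays. The difference between the signals at the 3′ and 5′ ends of the actin control, a sign of RNA or amplification quality, ranged from 2.66 to 4.70 between arrays on the log2 scale. B6g7 Tconv array 3 read low for the proteasome genes. It was the lowest of the 12 arrays for 18 of 47, and 40 lay below their mean over all arrays. The share of all genes that were lowest on that array was not counted. Of the 2975 genes at least as bright as the median proteasome gene, called bright below, 74.4% lay below their mean on that array.

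Levels are log2 intensities of a gene's brightest probe set, and levels of different genes do not compare as amounts of RNA. A mean level is called dim under 5.28, the 25th percentile of all probe sets. By that measure 45 of the 47 genes were above the dim range in every group. Psmb11, the thymus-specific beta subunit, was dim in all 4 groups with a mean of 5.02 over the arrays. Psma8, the testis form of an alpha subunit, was dim in 2 groups, with a mean of 5.35. The alpha genes ran from there to 12.55 for Psma3, and the constitutive beta genes from 8.24 for Psmb2 to 12.20 for Psmb4. The ATPase genes ran from 7.94 for Psmc1 to 12.60 for Psmc2, and the non-ATPase genes from 7.01 for Psmd9 to 11.84 for Psmd14. The activators and the inhibitor ran from 7.99 for Psme3 to 11.43 for Psme1, and the Psmg chaperones from 5.98 for Psmg3 to 10.10 for Psmg1. The SD within a group ranged from 0.08 for Psmd8 to 0.62 for Psma1, with a median of 0.18 against 0.15 over all genes.

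**Figure D1:**
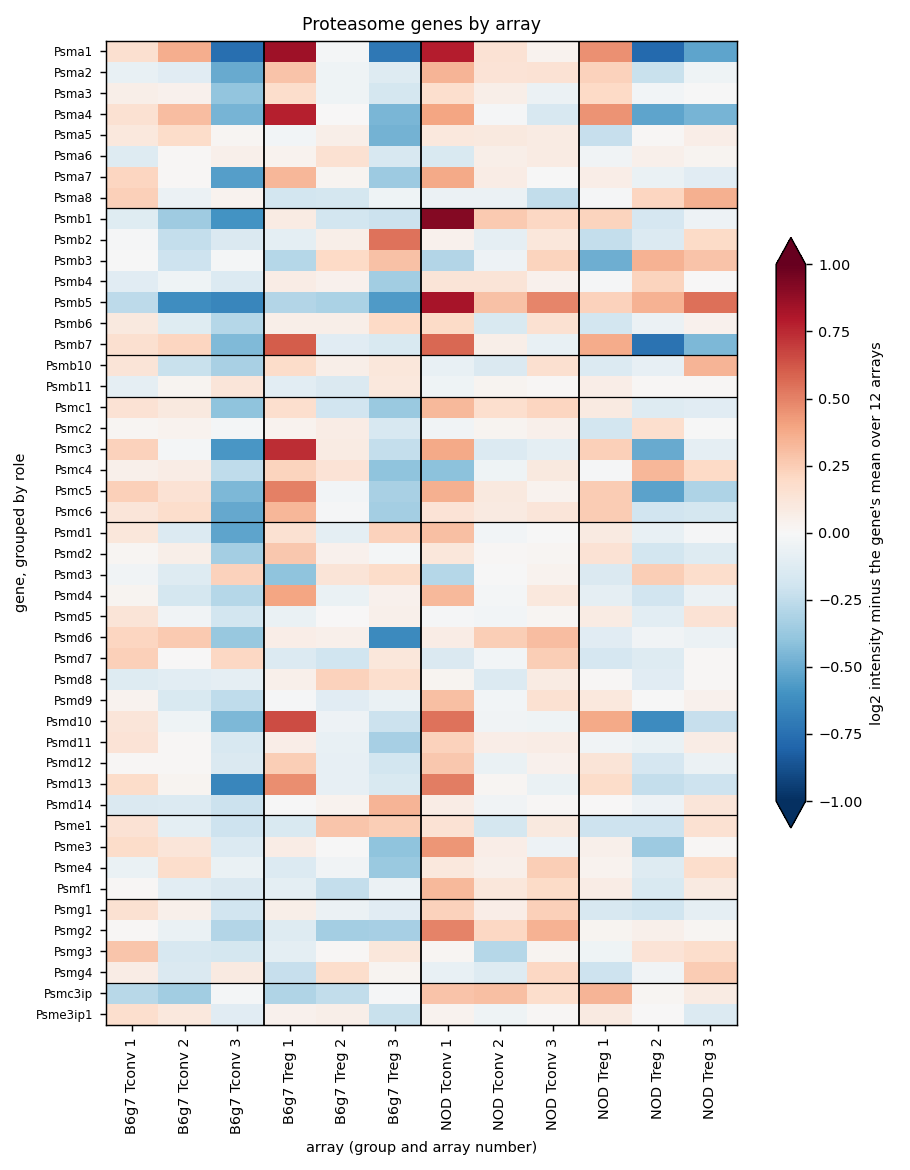
Each row is a proteasome gene, grouped by role, and each column an array; colour gives the log2 intensity minus that gene's mean over the 12 arrays. Psmb5 is below its mean in all B6g7 arrays and above it in all NOD arrays, and most genes are below their mean on B6g7 Tconv array 3.

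Treg and Tconv were first compared within each strain and averaged over both. No proteasome gene was called different between them. By limma at an adjusted p under 0.05, 0 of 47 genes were called in the average of both strains, where 7.5% of all genes were called, 0 in B6g7 (4.55% of all genes) and 0 in NOD (4.38% of all genes). At an unadjusted p under 0.05 there were 2, 2 and 4, and the share of all genes at that line was not counted. Averaged changes lay between -0.24 and 0.16 on the log2 scale with a median of -0.02, against -0.01 over all genes. The 95% interval of the averaged change lay within 0.5 in either direction for 42 genes and within 1 for all 47. Within a strain the intervals were wider: they lay within 0.5 for 27 genes in B6g7 and 26 in NOD.

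**Figure D2:**
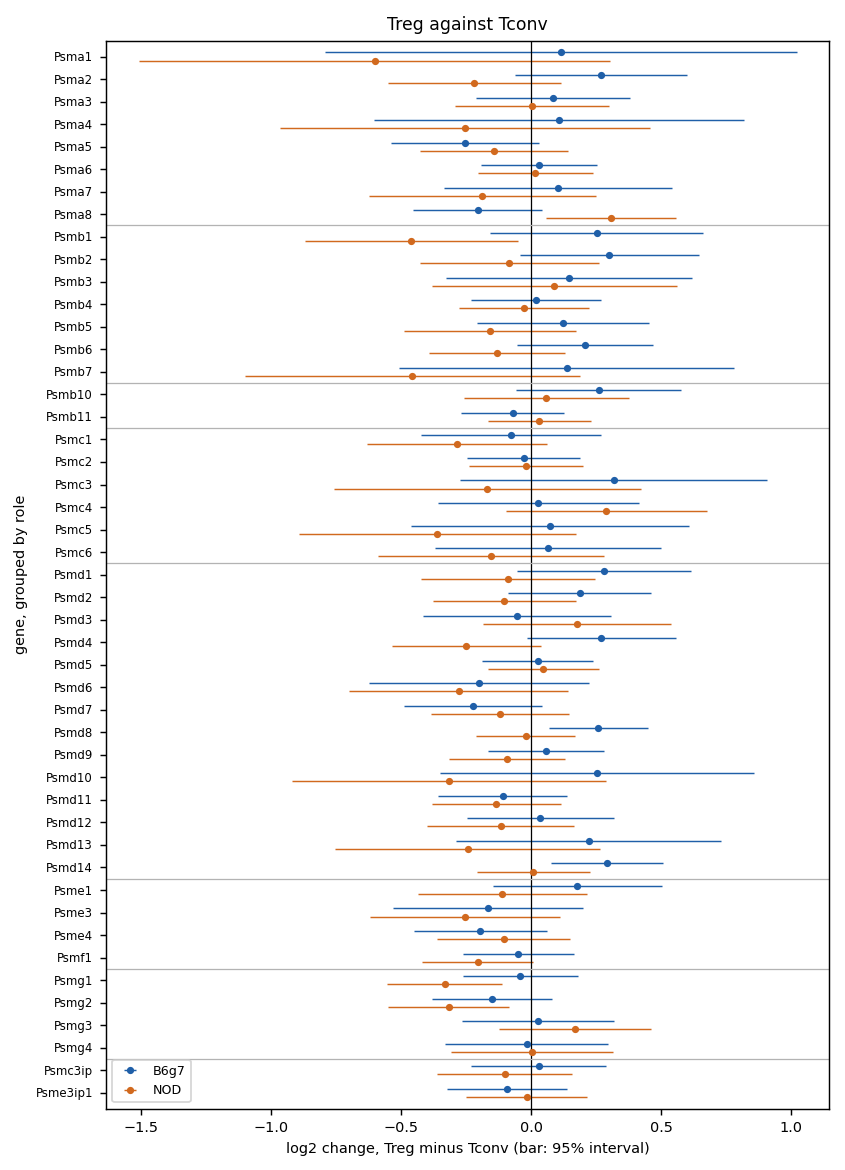
Points give the Treg minus Tconv difference in mean log2 intensity of each proteasome gene in B6g7 and in NOD, with 3 arrays per group, and bars the 95% interval of the fit. The changes span -0.25 to 0.32 in B6g7 and -0.60 to 0.31 in NOD, and none was called.

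By role, the alpha ring genes had averaged changes from -0.24 for Psma1 to 0.05 for Psma8, with a median of -0.01. In NOD, Psma1 had the change of largest size of the 47, -0.60 ± 0.42 (SE, adjusted p = 0.748). The 7 constitutive beta genes had B6g7 changes of 0.02 to 0.30, the highest for Psmb2, and 6 of the 7 were below 0 in NOD. None of these passed the test. For Psmb7, which carries the trypsin-like site, the change in NOD was -0.46 ± 0.30 (SE, adjusted p = 0.718). For Psmb1, a structural beta subunit, the change in NOD was -0.46 ± 0.19 (SE, adjusted p = 0.362). Same-numbered NOD arrays deviated together. With the array number as a block in the limma fit of all groups, Psmb1 was called lower in NOD Treg (adjusted p = 0.0226). That block also took in the B6g7 arrays, and the numbers were not shown to pair the B6g7 Tconv arrays with others. The p-value is therefore not that of a test paired within NOD alone, and no such test was run.

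In the regulatory particle, no ATPase gene was called, nor any of the 14 non-ATPase genes, which include its assembly chaperones Psmd5, Psmd9 and Psmd10. Psmc3, the ATPase of largest change in B6g7, had 0.32 ± 0.27 (SE), and Psmc5, that of largest change in NOD, had -0.36 ± 0.25. Psmd8 and Psmd14, which encodes the deubiquitinase built into the particle, had the lowest p-values among the non-ATPase genes in B6g7. Psmd8 read 8.04, 8.07 and 8.08 in B6g7 Tconv and 8.23, 8.41 and 8.34 in B6g7 Treg, groups that do not overlap, a change of 0.26 ± 0.09 (SE, adjusted p = 0.196). In NOD it read 8.20, 8.04 and 8.26 in Tconv and 8.19, 8.06 and 8.19 in Treg, which do overlap. Psmd14 had 0.29 ± 0.10 in B6g7 (adjusted p = 0.2) and 0.01 ± 0.10 in NOD (adjusted p = 0.994), and Psmd1, a scaffold subunit of the base, had 0.28 ± 0.15 in B6g7. None of these passed. Psmd6, a lid subunit, had an averaged change of -0.24 ± 0.14 (SE, adjusted p = 0.518).

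Of the activators, Psme3 had -0.21 ± 0.12 averaged over strains and Psme1, a subunit of the interferon-inducible activator, 0.03 ± 0.11. Among the core chaperones, Psmg1 and Psmg2, which pair to start the alpha ring, came nearest to a call. Psmg1 read 10.33, 10.17 and 10.34 in NOD Tconv and 9.94, 9.90 and 10.0035 in NOD Treg. Every NOD Treg array lay below every NOD Tconv array, with a change of -0.33 ± 0.10 (SE, adjusted p = 0.139). Psmg2 had an averaged change of -0.23 ± 0.08 (SE, adjusted p = 0.111).

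The strain difference in the Treg to Tconv change is the question put by the study. It gave 0 calls among the 47 genes by limma, where 0.11% of all genes were called. At an unadjusted p under 0.05 there were 5, and the share of all genes at that line was not counted. The lowest adjusted p was 0.962. The differences of largest size were -0.72 ± 0.59 for Psma1, -0.71 ± 0.27 for Psmb1, -0.59 ± 0.42 for Psmb7 and -0.57 ± 0.39 for Psmd10, an assembly chaperone also known as gankyrin. Psmd4, a ubiquitin receptor of the particle, had -0.52 ± 0.19. Psma8, the gene of lowest p in this comparison, ran the other way, at 0.51 ± 0.16, with levels near the dim range. The interval of the difference lay within 0.5 for 14 genes only. The difference was below 0 for 35 of 47 genes, against 55.9% of all genes. Its median was -0.17, against -0.03 over all genes. Without B6g7 Tconv array 3 the median was -0.09, against -0.04 over all genes, and 32 of the 47 lay below 0.

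Other probe sets of a gene were read as well, 100 in all for the 47 genes, while 21 genes have 1. In the average of both strains 2 of the 100 were called, where 5.84% of all probe sets were. Both were alpha ring probe sets that disagree with the brightest one of their gene. The second brightest probe set of Psma1 read 9.38, 9.33 and 9.01 in B6g7 Tconv and 8.71, 8.36 and 8.33 in B6g7 Treg. In NOD it read 10.22, 9.84 and 9.79 in Tconv and 8.83, 8.49 and 8.87 in Treg. Treg lay below Tconv without overlap in both strains, with an averaged change of -0.998 ± 0.11 (SE, adjusted p = 8.0e-05). The brightest probe set of Psma1 had -0.24 ± 0.30 (SE, adjusted p = 0.848). The next gene on one side of Psma1 in the RefSeq gene order is Pde3b, a phosphodiesterase gene, which was lower in Treg by a log2 change of -3.28 (adjusted p = 4.46e-08). On the other side lies Copb1, at -0.15 (adjusted p = 0.829). In Tconv the second brightest Psma1 probe set averaged 9.24 in B6g7 and 9.95 in NOD. For NOD minus B6g7 in Tconv, Pde3b changed by -0.46 (adjusted p = 0.542) and Copb1 by 0.25 (adjusted p = 0.821), neither called by limma. Whether the second brightest Psma1 probe set reads RNA of a neighbour was not tested. One of the dimmer Psma6 probe sets was lower in Treg by -0.63 ± 0.16 (SE, adjusted p = 0.0294), where the brightest had 0.02.

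The strains were then compared within each population and averaged over both. Psmb5, the constitutive subunit with the chymotrypsin-like site, was higher in NOD than in B6g7 in Tconv and in Treg, by 2.07-fold and 1.70-fold. Psmb1 and the chaperone gene Psmg2 were higher in NOD Tconv by 1.76-fold and 1.38-fold. No proteasome gene was called lower in NOD. By limma at an adjusted p under 0.05, 3 of 47 genes were called in the average of both populations (Psmb5, Psmg2 and Psmc3ip, all higher), where 5.8% of all genes were called in either direction and 3.25% higher. In Tconv 3 were called higher (Psmb5, Psmb1 and Psmg2), where 3.05% of all genes were called in either direction and 1.6% higher, and in Treg 1 (Psmb5), where 3.33% and 1.84% were. At an unadjusted p under 0.05 there were 6, 7 and 4, again with no share of all genes counted. Of the 4 Treg markers Ikzf2, a transcription factor gene, was also called higher in NOD Tconv than in B6g7 Tconv, by 0.76 (adjusted p = 0.0492), without overlap of the arrays, and its part in the Tconv results was not tested.

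**Figure D3:**
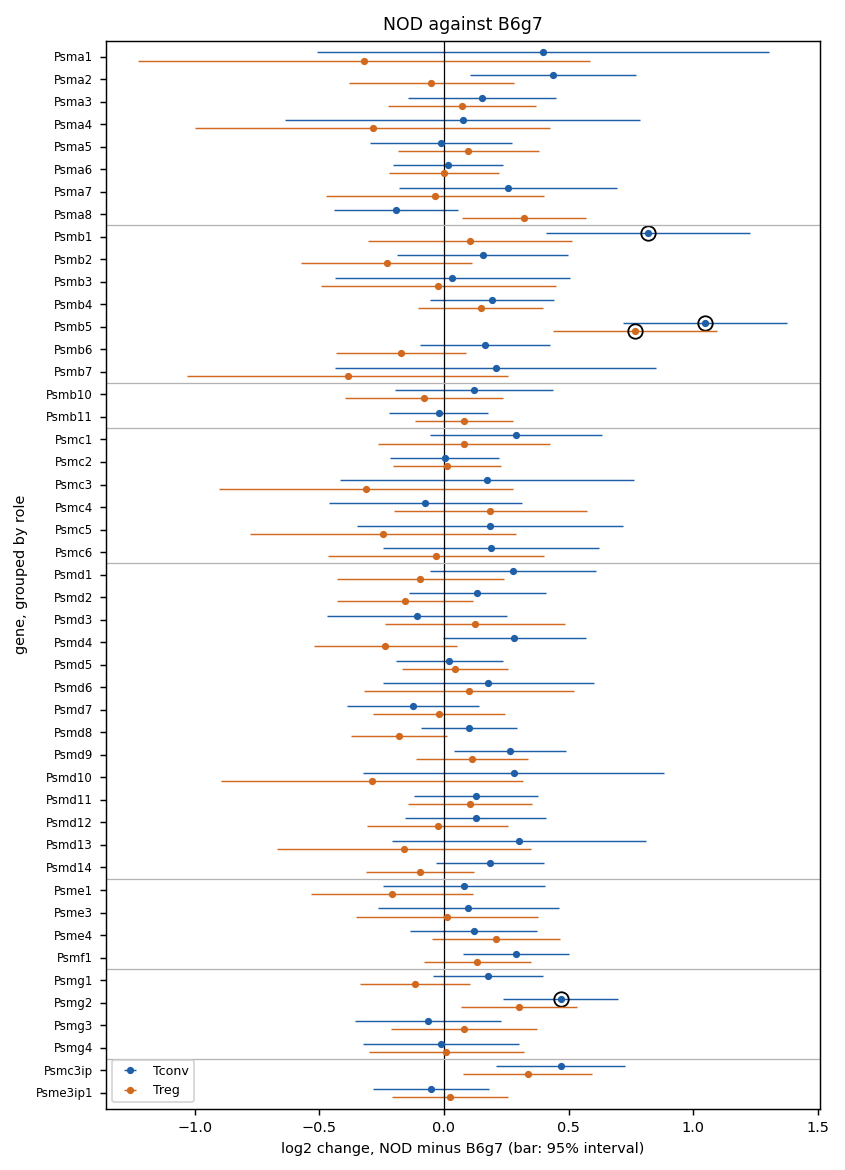
Points give the NOD minus B6g7 difference in mean log2 intensity of each proteasome gene in Tconv and in Treg, with 3 arrays per group, bars the 95% interval of the fit, and black rings the called genes. Psmb5 stands to the right of the other genes in both populations, at 1.05 in Tconv and 0.77 in Treg.

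Psmb5 has 1 probe set. Sequence differences between NOD and B6 under its probes could lower or raise its signal and were not tested, here or for any other gene compared between strains. It read 10.04, 9.68 and 9.65 in B6g7 Tconv and 11.13, 10.60 and 10.79 in NOD Tconv. In Treg it read 10.01, 9.99 and 9.74 in B6g7 and 10.53, 10.65 and 10.85 in NOD. All 6 NOD arrays lay above all 6 B6g7 arrays. The change was 0.91 ± 0.11 averaged over populations (SE, adjusted p = 0.000135), 1.05 ± 0.15 in Tconv (adjusted p = 0.00134) and 0.77 ± 0.15 in Treg (adjusted p = 0.0128). The strain difference was not shown to depend on the population: it differed by -0.28 ± 0.21 between Treg and Tconv (adjusted p = 0.962). Between Treg and Tconv the averaged difference of Psmb5 itself was -0.02 ± 0.11. The Treg call did not pass without B6g7 Treg array 3 (adjusted p = 0.0621) or NOD Treg array 3 (adjusted p = 0.073). The Tconv and averaged calls passed with any 1 array left out.

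The other constitutive catalytic subunits were not called between the strains. Psmb6 had an averaged difference of -0.00 ± 0.09 and Psmb7 of -0.09 ± 0.21 (adjusted p = 0.997 and 0.963), and Psmb7 in Treg had -0.39 ± 0.30 (adjusted p = 0.824). Psmb6 read 10.65, 10.44 and 10.27 in B6g7 Tconv, 10.74, 10.41 and 10.71 in NOD Tconv, 10.62, 10.62 and 10.75 in B6g7 Treg and 10.37, 10.50 and 10.60 in NOD Treg. These arrays overlap between strains in Tconv, while in Treg all 3 NOD arrays lay below the B6g7 arrays (adjusted p = 0.781). The sequences before the start sites of Psmb5 and Psmb6 are shown because these active-site genes differ in their strain result and both hold the element TGACNNNGC, which CNC-bZIP factors such as the product of Nfe2l1, the known activator of proteasome genes, can bind. They are 250 bases upstream of the start from RefSeq (GRCm38.p6, the C57BL/6J reference and not NOD), chr14:54617996-54618245 on the minus strand and chr11:70525107-70525356 on the plus strand, read toward the gene, with the match in capitals.
Psmb5: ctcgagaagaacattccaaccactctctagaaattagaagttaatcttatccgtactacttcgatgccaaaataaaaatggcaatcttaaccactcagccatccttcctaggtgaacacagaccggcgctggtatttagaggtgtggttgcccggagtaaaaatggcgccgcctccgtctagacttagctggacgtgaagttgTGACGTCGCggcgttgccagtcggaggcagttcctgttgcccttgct
Psmb6: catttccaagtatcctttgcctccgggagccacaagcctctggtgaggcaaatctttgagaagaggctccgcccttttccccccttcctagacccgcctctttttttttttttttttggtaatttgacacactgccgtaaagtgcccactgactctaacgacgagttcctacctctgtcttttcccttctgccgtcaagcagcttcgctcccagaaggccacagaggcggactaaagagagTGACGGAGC
Of the 47 genes 39 have a window in the RefSeq promoter table, from 250 bases before to 50 after the start. TGACNNNGC, searched on both strands, was found in 6 of these (Psmb5, Psmb6, Psmc6, Psmd9, Psmd12 and Psme4), which is 15.4%, against 12.5% of all 27025 windows. The gamma-activated element TTCNNNGAA was found in 2 (5.13% against 8.47%), Psmd2 and Psmg1, and CCAAT in 14 (35.9% against 37.9%). These are matches of letters, not shown sites.

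Psmg2 and Psmb1 were higher in NOD by smaller amounts. Psmg2 read 9.40, 9.32 and 9.09 in B6g7 Tconv, 9.89, 9.60 and 9.74 in NOD Tconv, 9.26, 9.05 and 9.06 in B6g7 Treg and 9.42, 9.44 and 9.41 in NOD Treg. In each population the strains do not overlap, with a change of 0.47 ± 0.11 in Tconv (SE, adjusted p = 0.0318), 0.30 ± 0.11 in Treg (adjusted p = 0.239) and 0.39 ± 0.08 on average (adjusted p = 0.00716). Its other probe sets were not called, with averaged changes of 0.15 ± 0.31 and 0.10 ± 0.08 (SE), and with the mean over the gene's probe sets the averaged call was lost (adjusted p = 0.583). The Tconv call was lost without B6g7 Tconv array 2 (adjusted p = 0.0787) or 3 (0.12), NOD Tconv array 1 (0.161) or 3 (0.104), or NOD Treg array 3 (0.0527).

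Psmb1 read 10.48, 10.25 and 10.002 in B6g7 Tconv and 11.52, 10.86 and 10.81 in NOD Tconv. The groups do not overlap, with a change of 0.82 ± 0.19 (SE, adjusted p = 0.0345). Averaged over populations the difference was 0.46 ± 0.13 (adjusted p = 0.0731), which missed the threshold. With the array number as a block it passed (adjusted p = 0.00128), in a fit that called 8.04% of all genes. The numbers were not shown to pair the B6g7 Tconv arrays with others. In Treg Psmb1 read 10.69, 10.42 and 10.39 in B6g7 and 10.82, 10.44 and 10.55 in NOD, which overlap, with a change of 0.11 ± 0.19 (adjusted p = 0.964). The 2 dimmer probe sets of Psmb1 were not called in Tconv, at 0.34 ± 0.17 and 0.20 ± 0.14 (SE). The Tconv call was lost without B6g7 Tconv array 2 (adjusted p = 0.112) or 3 (0.149), NOD Tconv array 1 (0.111) or 2 (0.0509), B6g7 Treg array 2 (0.0505) or NOD Treg array 3 (0.0577). The number of genes called in Tconv fell to 1, Psmb5, without B6g7 Tconv array 2, NOD Tconv array 1 or NOD Treg array 3. Of all genes 2.21%, 2.23% and 2.78% were called in these fits.

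Psmc3ip, which is no proteasome subunit, was higher in NOD on average by 0.40 ± 0.08 (SE, adjusted p = 0.0115), with 0.47 ± 0.12 in Tconv (adjusted p = 0.0621) and 0.34 ± 0.12 in Treg (adjusted p = 0.241). Its second probe set read 6.01, 5.93 and 5.74 in B6g7 Tconv, 6.69, 6.95 and 7.01 in NOD Tconv, 6.09, 6.11 and 6.28 in B6g7 Treg and 6.56, 7.11 and 6.84 in NOD Treg. Its NOD arrays lay above its B6g7 arrays throughout, and it was called in Tconv (0.99 ± 0.14, SE, adjusted p = 0.0011) and Treg (0.68 ± 0.14, adjusted p = 0.0168). The second Psma1 probe set was also higher in NOD on average, by 0.49 ± 0.11 (SE, adjusted p = 0.0202). With these, 5 of the 100 probe sets were called in the average, where 5.5% of all probe sets were.

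**Figure D4:**
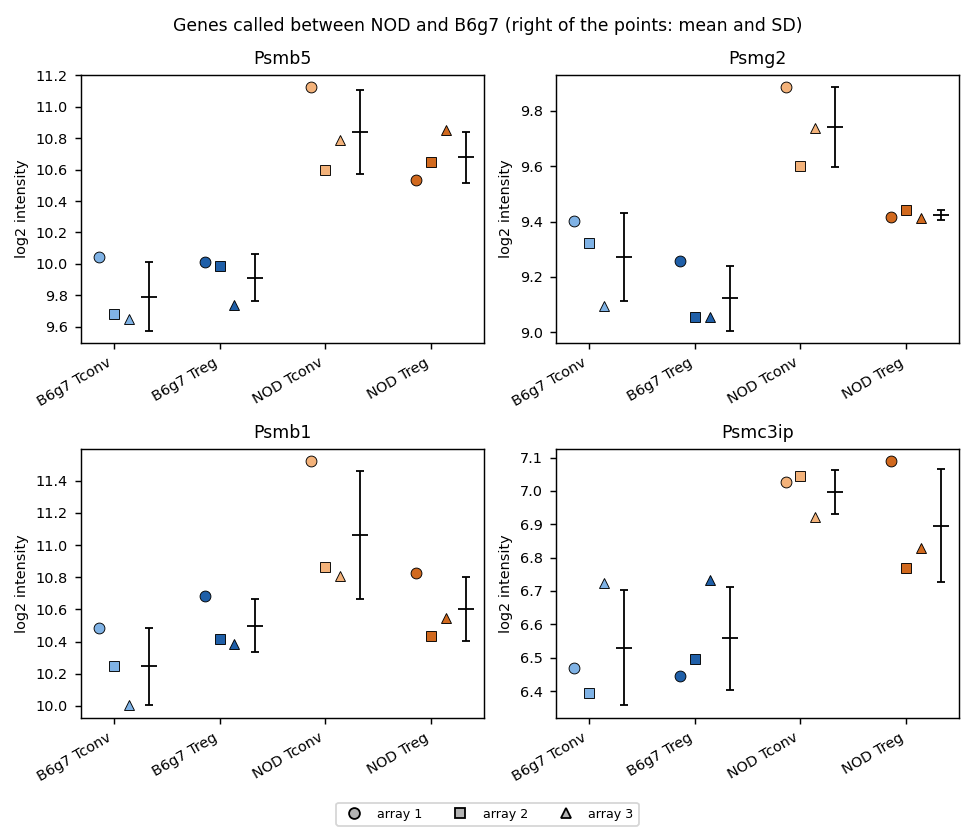
Log2 intensity of Psmb5, Psmg2, Psmb1 and Psmc3ip on every array, by group, with the mean and SD of the 3 arrays to the right of the points and a symbol for the array number. NOD lies above B6g7 without overlap in both populations for Psmb5, Psmg2 and Psmc3ip, and in Tconv for Psmb1.

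The remaining genes were not called between the strains, among them all ATPases, all other alpha, beta and non-ATPase genes, and the activators. Over the 47 genes the median NOD minus B6g7 change was 0.04 on average, 0.15 in Tconv and 0.00 in Treg, against 0.01, 0.03 and 0.00 over all genes. In Tconv 38 of 47 changes were above 0, against 57.4% of all genes. Without B6g7 Tconv array 3 the Tconv median was 0.05 with 32 above 0, against a median of 0.04 over all genes in that fit. The Treg minus Tconv comparison in B6g7 shares the B6g7 Tconv arrays with this Tconv comparison. Its median of 0.06, with 31 genes above 0, became -0.03, with 19 above 0, without B6g7 Tconv array 3. Over all genes that median went from 0.00 to 0.02. The shares of all genes above 0 were not counted without that array. Psmf1, the inhibitor PI31, had 0.21 ± 0.07 on average (SE, adjusted p = 0.128), Psmd9 0.19 ± 0.08 (adjusted p = 0.236) and Psma8 0.32 ± 0.11 in Treg (adjusted p = 0.246).

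The inducible catalytic subunits were set beside these for reference. Psmb10 was not called, with Treg minus Tconv changes of 0.26 ± 0.15 in B6g7 (SE, adjusted p = 0.573) and 0.06 ± 0.15 in NOD. Psmb8, the inducible counterpart of Psmb5, read 10.90, 10.66 and 10.37 in B6g7 Tconv and 11.43, 11.02 and 11.28 in B6g7 Treg. Those groups do not overlap, with a change of 0.60 ± 0.16 (SE, adjusted p = 0.0759) that missed the threshold. In NOD the difference was 0.09 ± 0.16 (adjusted p = 0.956), and the difference between the strains was -0.51 ± 0.23 (adjusted p = 0.962). Psmb9 had 0.14 ± 0.12 and 0.02 ± 0.12 (SE) in the same comparisons. Between strains, averaged over populations, Psmb8, Psmb9 and Psmb10 had 0.11, 0.16 and 0.02 on the log2 scale, none of them called. Psme2 is named in the annotation only together with another gene and is given no value.

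Many proteasome genes read higher on the array numbered 1 than on the others of the group. In 21 of the 47 genes, 44.7%, the first array lay above the mean of the other two in all 4 groups, against 15.2% of all genes and 33.9% of bright genes. The mean of this shift was over 0.5 on the log2 scale in 7 genes, 14.9%, against 2.19% of all genes and 4.97% of bright genes. They were Psma1 (0.84), Psma4 (0.67), Psmb7 (0.64), Psmd10 (0.64), Psmc3 (0.59), Psmc5 (0.51) and Psmd13 (0.50). Psma1 read 10.47, 9.60 and 8.90 in B6g7 Treg and 10.08, 8.84 and 9.09 in NOD Treg, a range within one group wider than its change between any groups. Psmb3 and Psmd3 ran the other way, with shifts of -0.40 and -0.32, and Psmd3 was lower on the first array in all 4 groups. The 3′ minus 5′ actin difference was lowest on the first array in both NOD populations and in B6g7 Treg, and on array 2 in B6g7 Tconv. The part of this difference in the shift was not tested.

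**Figure D5:**
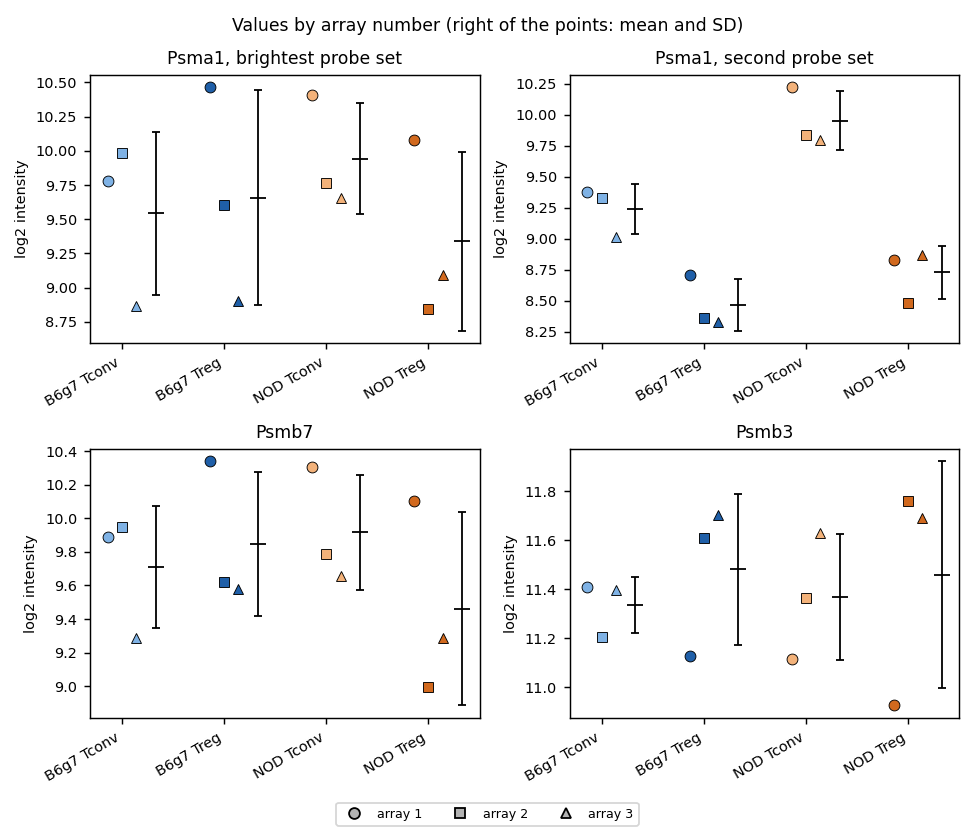
Log2 intensity of 2 Psma1 probe sets, Psmb7 and Psmb3 on every array, by group, with the mean and SD of the 3 arrays to the right of the points and a symbol for the array number. Array 1 is the highest of its group in 3 groups for the brightest Psma1 probe set and for Psmb7, and the lowest in 3 groups for Psmb3, while the second Psma1 probe set separates Treg from Tconv.

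Genes that control or serve the proteasome were counted from fixed lists. They are read beside the shares of all genes called, which were 7.5% for Treg against Tconv and 5.8% for NOD against B6g7 on average, and each list was read in 7 comparisons. Of the transcription list, 3 of 4 were measured and 1 was called: Nfe2l2, the oxidative stress factor that can raise proteasome genes, was lower in Treg. It read 10.72, 10.75 and 10.10 in B6g7 Tconv and 9.88, 9.35 and 9.01 in B6g7 Treg, and 10.68, 10.42 and 10.16 in NOD Tconv and 9.77, 9.05 and 9.03 in NOD Treg. Every Treg array lay below every Tconv array, with an averaged change of -1.12 ± 0.18 (SE, adjusted p = 0.0018). Its dimmer probe set changed by -0.91 ± 0.16 (SE, adjusted p = 0.00266). Both strains passed alone (-1.10 in B6g7 and -1.13 in NOD, adjusted p = 0.0345 and 0.0309). The B6g7 call was lost without B6g7 Tconv array 1 (0.138) or 2 (0.155), NOD Tconv array 2 (0.057), or B6g7 Treg array 2 (0.107) or 3 (0.154). The NOD call was lost without NOD Tconv array 1 (0.14) or 2 (0.102), or NOD Treg array 2 (0.146) or 3 (0.15). Nfe2l1 had 0.17 ± 0.08 (SE, adjusted p = 0.352) and Ngly1, which encodes the enzyme that activates its product, -0.23 ± 0.08 (adjusted p = 0.172), neither of them called.

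Of 7 measured proteasome-associated and assembly genes, 1 was called: Akirin2, which brings proteasomes into the nucleus, was higher in NOD by 0.27 ± 0.07 on average (SE, adjusted p = 0.0348), and its dimmer probe set was not called. Pomp and Sem1 were not called, nor was Usp14, a deubiquitinase that associates with the regulatory particle, at -0.20 for Treg minus Tconv (adjusted p = 0.219). Of 10 ubiquitin shuttle and unfoldase genes, Ubqln4 was higher in Treg by 0.23 ± 0.06 on average (SE, adjusted p = 0.047) and Zfand5 higher in NOD by 0.40 ± 0.09 (adjusted p = 0.0192), each by its brightest probe set and not by its others. Of 9 genes of interferon-inducible antigen processing, Nlrc5, the activator of MHC class I genes, was higher in Treg by 0.49 ± 0.11 (SE, adjusted p = 0.0176) and lower in NOD, at -0.50 ± 0.11 (adjusted p = 0.0161). Irf1 was higher in NOD by 0.33 ± 0.08 (adjusted p = 0.0312). Uba6, the 1 measured gene of ubiquitin and its activating enzymes, was not called in any comparison, at 0.10 ± 0.08 for Treg minus Tconv. Whether the calls of Akirin2, Ubqln4, Zfand5, Nlrc5 and Irf1 pass without single arrays was not tested.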

How the data were processed

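The authors deposited 1 intensity per probe set and array, normalized with RMA as the series text states. Which software ran it is not given in the sources used here. Per the labels' protocols RNA was amplified in 2 rounds. The deposited intensities are linear and were taken as log2 with no further normalization, pseudocount or filter. Of 45101 probe sets 64 controls were left out. Gene names are those of the platform annotation, and each gene was read from its brightest probe set by 12-array mean. Probe sequences were not used here. limma 3.58.1 in R 4.3.3 (a mean per group, eBayes) was fitted to all 12 arrays, with Benjamini-Hochberg adjustment over all 45037 probe sets and calls at an adjusted p under 0.05. With 3 arrays against 3, exact permutation gives no p under 0.1, so none is reported. The number of arrays limits the precision. The fit was run on simulated arrays with planted changes and noise independent between probe sets. That noise holds no shift of a whole array, such as that of B6g7 Tconv array 3. The check required recovery of the largest planted changes only, and not for the strain difference in the Treg to Tconv change.

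The text names every called gene, the 4 of largest change in each comparison, the brightest and dimmest of each role, the catalytic and inducible subunits, and of each list the called genes and the one of smallest p. Other genes, such as Psmd4, Psmd9, Pomp and Sem1, were chosen after their values were seen. The genes, lists and rules were chosen with earlier results of these data known.

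The labels number the replicates 1 to 3. Deviations of same-numbered arrays correlated at 0.352 or more between NOD Tconv and NOD Treg, against at most 0.245 for different numbers. Between B6g7 Treg and NOD Treg they correlated at 0.277 or more, against at most 0.324 for different numbers. The numbers were taken to pair the arrays between the NOD groups, and were not shown to pair those of other groups. Of the pairs with B6g7 Tconv some were below 0. The main fit did not use the pairing, so its results for Treg against Tconv in NOD come from an unpaired comparison. The alternatives were the array number as a block, array weights, the actin difference as a covariate, 2 other scalings, a pseudocount of 16, a filter on dim probe sets, the mean over a gene's probe sets, another variance prior, the ratio of mean intensities (no test), only the groups compared, and arrays left out.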

Additional observations from a re-analysis of the deposited data

How the results depend on the processing

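Over the alternatives run, the called changes of Psmb5, Psmb1, Psmg2, Psmc3ip and Nfe2l2 kept their direction; single uncalled genes and the other called list genes were not followed. With arrays left out, the median over the 47 genes changed sign for Treg against Tconv on average (-0.04 to 0.02) and in B6g7 (-0.03 to 0.16), and for NOD against B6g7 in Treg (-0.06 to 0.05). The Psmb5 difference between strains passed in all 22 alternatives on average (0.84 to 0.97), in all 23 with a test in Tconv (0.90 to 1.17) and in all but 2 of 23 in Treg (0.68 to 0.89), and the Nfe2l2 difference between Treg and Tconv in all 22 on average. The Psmb1 and Psmg2 calls in Tconv were lost in 9 and 10 of 23. The averaged Psmc3ip call was lost without the first arrays of all groups (adjusted p = 0.179). With 1 array left out, the number of genes called for Treg against Tconv ran from 0 to 1 on average. The 1 was Psmg2 without B6g7 Tconv array 3, where 7.9% of all genes were called. The number stayed 0 in B6g7, in NOD and for the difference between strains. For NOD against B6g7 it ran from 3 to 3 on average, 1 to 4 in Tconv and 0 to 1 in Treg. Of all genes 4.76% to 5.53%, 2.17% to 3.23% and 2.26% to 3.44% were called in these. With limma's array weights 3 genes were called for Treg against Tconv on average (Psmc1, Psmg1 and Psmg2), where 13.2% of all genes were. In B6g7 that fit called 1 (Psmd8), where 9.16% of all genes were called. For NOD against B6g7 it called 5 on average and 4 in Treg, where 9.09% and 5.28% of all genes were. Quantile normalization gave 1 for Treg against Tconv on average (Psmg2), where 8.15% of all genes were called. For NOD against B6g7 in Treg it gave 2 (Psmb5 and Psmg2), where 3.6% of all genes were called. The mean over probe sets also gave 2 there (Psmb5 and Psmc3ip), where 3.59% were. For NOD against B6g7 in Tconv the actin covariate gave 5, where 4.78% of all genes were called. The fit of only the groups compared gave 1 there (Psmb5), where 2.74% were. The array number as a block gave 1 gene for Treg against Tconv in NOD (Psmb1), where 6.81% of all genes were called. For NOD against B6g7 in Tconv it gave 5 (Psma2, Psmb1, Psmb5, Psmc3ip and Psmg2), where 4.96% of all genes were. The numbers were not shown to pair the B6g7 Tconv arrays with others. For NOD against B6g7 on average the block gave 4, with Psmb1 added (adjusted p = 0.00128), where 8.04% of all genes were called. It changed no other count by over 1.5 times. The cause of these changes was not tested.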
